A study of Mus musculus with 18 samples.

Results

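Oxidative phosphorylation, the process by which mitochondria make ATP, is carried out by complexes I to V of the inner mitochondrial membrane, and most of their subunits are encoded in the nucleus. Mouse liver mRNA was examined here for the 90 genes whose symbols carry the names of those nuclear subunits (Nduf, Sdh, Uqcr, Cox4 to Cox8 and Atp5), of 54752 genes in the table. Complex I had 39 of them, complex II 4, complex III 8, complex IV 21 and complex V 18. Symbols ending in -ps were left out, which removed 8 genes. A total of 87 of the 90 had a count in at least 1 library, and 84 passed the filter on low counts and were tested. Of the 90, 77 encode widely expressed proteins, and all 77 were tested. The other 13 are 8 tissue isoforms, 4 annotated pseudogene copies and a second identifier of Atp5o, and 7 of these were tested. The widely expressed set holds Cox7a2l, which joins complexes III and IV, and Atp5s, a coupling factor that is not part of the enzyme, and Ndufa4 is counted with complex IV, where its protein is now placed.

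The livers came from male C57BL/6 mice bought at 6 weeks of age and kept on treatment for 12 weeks, with 6 mice and 6 libraries in each of 3 groups. Cirrhosis-PTH mice were injected 2 times a week with 10% carbon tetrachloride (CCl4), a solvent toxic to hepatocytes, in corn oil at 10 µl per g, and received an oral dose of 0.25 mg per g of Pien Tze Huang (PTH), a traditional Chinese medicine, every day. Cirrhosis mice had the same CCl4 injections and were given double distilled water by mouth. Control mice had corn oil injections without CCl4, and double distilled water by mouth. The injections and the corn oil were therefore common to all groups, and no group had PTH without CCl4. The protocol describes 15 mice per group, and 6 per group were analysed here.

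Complex I takes electrons from NADH, complex II takes them from succinate in the citric acid cycle, complex III passes them from ubiquinol to cytochrome c, and complex IV passes them on to oxygen. Complexes I, III and IV pump protons, and complex V, the ATP synthase, uses the returning protons to make ATP. Hepatocytes are rich in mitochondria and spend this ATP on glucose, urea and bile acid synthesis. The subunits are short proteins for the most part, and the core ones that carry the redox centres are surrounded by accessory subunits.

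The promoters of these genes are described first, and their part in the group differences was not tested. RefSeq promoter windows of 300 bases, 250 before and 50 after the start of the gene (GRCm38.p6), were matched for 65 of the 77 widely expressed subunits. Shares are of genes, and a subunit with 2 windows was counted once. The letters CGCATGCG, a core of the nuclear respiratory factor 1 (NRF1) motif, stood on either strand in 13.8% of the 65 subunits, against 2.77% of 17492 protein-coding genes and 2.07% of all 27025 genes with a window. CCGGAAG, the core bound by GA-binding protein and other ETS factors, stood in 24.6% of the subunits, against 12.9% of protein-coding genes and 9.93% of all genes. AAGATGGC, a YY1 motif, stood in 15.4%, against 3.57% of protein-coding genes and 3.19% of all genes. The 10 subunits with it were 7 genes of complex I and 3 of complex V. In the 150 bases before the start alone, the YY1 letters stood in 1.54% of the subunits, 1.03% of protein-coding genes and 1.02% of all genes. CCGGAAG ends in the AAG that begins AAGATGGC, so these 2 motifs can share letters. At least 1 of the 3 stood in 29 of the 65 subunits, and all 3 stood in 1, Atp5j. A match of letters is a description and not a binding site.

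The windows of 5 genes are printed 5′ to 3′ in the direction of the gene, with the motif letters in capitals. Uqcr11 (chr10:80406772-80407071 on the minus strand) is shown as the subunit with the largest fall in Cirrhosis livers, and holds the ETS letters and, nearer the start, the NRF1 letters. Ndufa3 (chr7:3617123-3617422 on the plus strand) holds the YY1 letters just after its start. Sdhb (chr4:140961021-140961320 on the plus strand) stands for complex II, and holds the ETS letters. The second of 2 windows of Atp5j (chr16:84834927-84835226 on the minus strand) holds the NRF1, YY1 and ETS letters in that order. Cox8a (chr19:7217567-7217866 on the minus strand) is shown as the widely expressed subunit that was not called in any comparison, and holds the ETS letters at 2 places, both in the reverse direction.
Uqcr11: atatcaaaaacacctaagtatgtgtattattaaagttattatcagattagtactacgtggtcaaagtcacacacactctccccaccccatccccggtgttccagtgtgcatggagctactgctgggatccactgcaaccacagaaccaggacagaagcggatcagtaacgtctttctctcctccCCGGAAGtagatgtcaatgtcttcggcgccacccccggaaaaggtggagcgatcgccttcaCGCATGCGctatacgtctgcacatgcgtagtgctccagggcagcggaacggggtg
Ndufa3: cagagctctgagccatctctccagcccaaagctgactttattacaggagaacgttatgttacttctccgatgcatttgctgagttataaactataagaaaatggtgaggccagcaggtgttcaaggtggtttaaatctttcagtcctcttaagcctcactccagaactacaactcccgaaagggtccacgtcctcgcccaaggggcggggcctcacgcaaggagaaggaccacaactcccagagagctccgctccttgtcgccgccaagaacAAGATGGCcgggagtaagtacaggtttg
Sdhb: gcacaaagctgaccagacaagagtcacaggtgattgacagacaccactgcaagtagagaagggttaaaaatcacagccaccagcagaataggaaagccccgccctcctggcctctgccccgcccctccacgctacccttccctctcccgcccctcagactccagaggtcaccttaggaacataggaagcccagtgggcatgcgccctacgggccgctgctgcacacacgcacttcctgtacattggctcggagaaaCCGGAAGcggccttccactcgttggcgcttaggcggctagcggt
Atp5j: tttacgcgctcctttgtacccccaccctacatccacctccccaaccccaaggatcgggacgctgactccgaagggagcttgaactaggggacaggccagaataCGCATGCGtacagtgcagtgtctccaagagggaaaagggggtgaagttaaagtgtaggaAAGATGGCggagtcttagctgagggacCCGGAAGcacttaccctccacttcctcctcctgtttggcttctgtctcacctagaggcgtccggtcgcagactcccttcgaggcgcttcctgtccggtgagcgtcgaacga
Cox8a: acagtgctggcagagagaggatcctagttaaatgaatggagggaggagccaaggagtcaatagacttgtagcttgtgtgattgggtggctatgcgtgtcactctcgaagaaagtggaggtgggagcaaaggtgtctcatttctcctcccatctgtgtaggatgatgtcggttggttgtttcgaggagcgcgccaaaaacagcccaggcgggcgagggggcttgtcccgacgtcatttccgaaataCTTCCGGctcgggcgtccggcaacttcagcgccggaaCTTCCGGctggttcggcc

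Totals ran from 62.5 M to 112.3 M counts per library, of which 31.4% to 60.8% lay in loci that collect ribosomal RNA reads, with the highest shares in Control replicates 7 and 8. Levels are in CPM, counts divided by the library size in M after TMM scaling. TMM uses the trimmed mean of log ratios between libraries and assumes that most genes do not change. The TMM factors averaged 1.01 in Cirrhosis-PTH, 1.29 in Cirrhosis and 0.782 in Control, so this scaling matters here. Without it, the 90 genes took 0.710 ± 0.0168% of the counts outside the ribosomal loci in Cirrhosis-PTH livers, 0.595 ± 0.0338% in Cirrhosis livers and 0.677 ± 0.0562% in Control livers (SD, n = 6 each).

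In Cirrhosis livers, mRNA of nearly all nuclear subunits was lower than in Control livers. Of the 84 genes tested, 79 were lower and 2 were higher at an adjusted p under 0.05, while 25.0% of all 21914 genes tested were lower and 25.5% were higher. Among the 77 widely expressed subunits, 76 were lower and Cox8a was not called. The median log2 fold change of the 77 was -0.67, and that of all genes tested was 0.02. For 69 of the 77, every Cirrhosis library lay below every Control library, as did 14.7% of all genes tested. In livers of this kind, which are mixtures of cells, fewer cells of a type and less RNA per cell cannot be told apart.

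In Cirrhosis-PTH livers most subunits were higher than in Cirrhosis livers. Of the 84 genes, 72 were higher and 1 was lower, against 20.1% and 18.6% of all genes tested. The 77 widely expressed subunits had 71 higher and none lower in edgeR or in DESeq2 (0 also at an unadjusted p under 0.05 in both), with a median of 0.53. All libraries of Cirrhosis-PTH lay above all libraries of Cirrhosis for 45 of them, against 11.8% of all genes tested. The 6 not called were Ndufa11, Cox5b, Cox6a1, Cox8a, Atp5j2 and Atp5k.

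Against Control livers, Cirrhosis-PTH livers had 7 of the 84 genes lower and none higher, where 2.48% of all genes tested were lower and 6.34% were higher. At an unadjusted p under 0.05, edgeR had 28 lower and 0 higher, and DESeq2 had 27 lower and 0 higher, with 9 lower after adjustment. Shares of all genes at an unadjusted p or in DESeq2 are not given. Such counts, here and below, cannot be set against the shares above. The median of the 77 was -0.14. The 3 comparisons share their libraries in pairs, so they are not independent of each other.

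**Figure D1:**
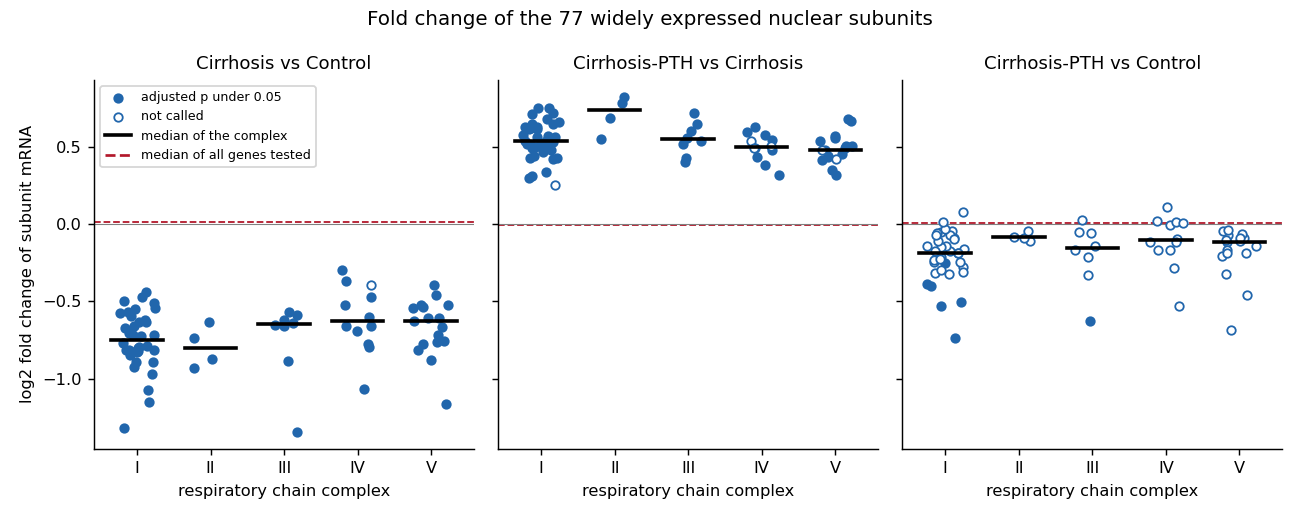
Each point is 1 of the 77 widely expressed subunits, placed by complex on the x axis and by its log2 fold change on the y axis, filled where the adjusted p was under 0.05. The black bars are medians of a complex and the dashed line is the median of all genes tested. With TMM scaling all 77 lie below 0 in Cirrhosis against Control, where 8 lie above it with unscaled totals, and all 77 lie above 0 in Cirrhosis-PTH against Cirrhosis, where 1 lies below it with unscaled totals.

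How far the subunits moved depended on how the libraries were scaled. When each library was divided by its total outside the ribosomal loci, with no TMM factor, the median of all genes was 0.50 in Cirrhosis against Control, -0.29 in Cirrhosis-PTH against Cirrhosis and 0.20 in Cirrhosis-PTH against Control. The median of the 77 subunits was then -0.19, 0.23 and 0.05 in the same order, and of the 77, 29 were called lower, 36 higher, and 1 higher and 1 lower. Of all 22019 genes tested under that scaling, 9.24% were called lower and 50.6% higher in Cirrhosis than in Control, 10.1% higher and 34.4% lower in Cirrhosis-PTH than in Cirrhosis, and 17.3% higher and 0.967% lower in Cirrhosis-PTH than in Control. The subunit median minus the all-gene median was -0.69, 0.52 and -0.15 under that scaling, and -0.69, 0.53 and -0.15 with TMM. Among all genes called in Cirrhosis against Control, the share called higher was 84.5% without the TMM factor and 50.5% with it. That share was 22.6% without it and 51.9% with it in Cirrhosis-PTH against Cirrhosis, and 94.7% and 71.9% in Cirrhosis-PTH against Control. Calls of higher and lower below are on the TMM scale. For some of the genes and lists whose direction differs between the scales, but not for all, the unscaled totals are also given. The medians of all 5 complexes stayed below 0 in Cirrhosis against Control on unscaled totals, with 18 of 36 genes called lower in complex I, 3 of 4 in complex II, 2 of 8 in complex III, 1 of 12 in complex IV and 5 of 17 in complex V. The complex IV count was near the 9.24% of all genes. In Cirrhosis-PTH against Cirrhosis they stayed above 0, with 16, 4, 5, 5 and 6 genes called higher in the same order.

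**Figure D2:**
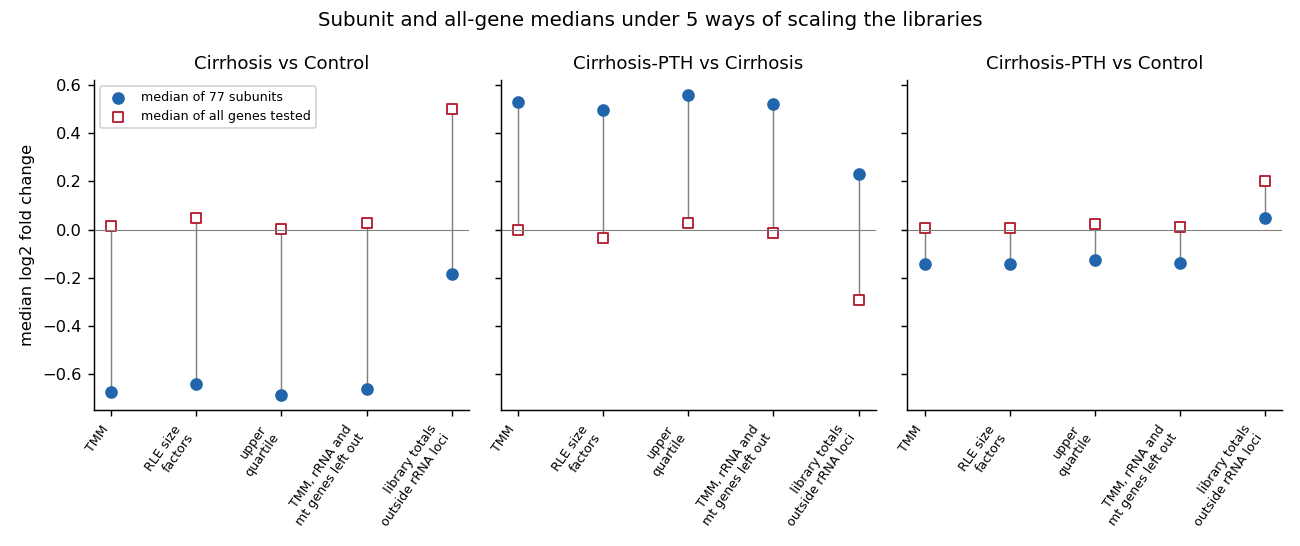
The filled circles are the median log2 fold changes of the 77 subunits and the open squares those of all genes tested, under 5 ways of scaling the libraries (x axis), with a panel per comparison. The circle of the last position in each panel is nearer 0 or across it, while the distance from circle to square stays at -0.69, between 0.52 and 0.54, and at -0.15.

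Complex I, the largest of the set, had all 36 of its widely expressed subunits lower in Cirrhosis livers than in Control livers, with a median of -0.75, and 35 higher in Cirrhosis-PTH livers than in Cirrhosis livers, with a median of 0.54. The 7 core subunits were lower (median -0.70) and then higher (median 0.56) in those comparisons, and none of them was called between Cirrhosis-PTH and Control in edgeR or DESeq2 (2 and 1 lower at an unadjusted p under 0.05, median -0.09, and 0.10 on unscaled totals). The 29 accessory subunits had medians of -0.80, 0.52 and -0.23 in the same order, and 6 of them were lower in Cirrhosis-PTH than in Control. Among the core subunits, Ndufv1, which binds NADH and the flavin that takes its electrons, had lowest, median and highest levels of 53.3, 55.2 and 68.6 CPM in Cirrhosis-PTH livers, 30.2, 34.8 and 38.6 CPM in Cirrhosis livers, and 51.9, 61.2 and 66.7 CPM in Control livers. The Cirrhosis libraries did not overlap either other group, and the Cirrhosis-PTH libraries overlapped the Control libraries. The log2 fold change of Ndufv1 was -0.79 ± 0.08 (adjusted p = 6.61e-08) in Cirrhosis against Control and 0.71 ± 0.08 (adjusted p = 4.92e-07) in Cirrhosis-PTH against Cirrhosis. Ndufs8, an iron-sulfur subunit close to the membrane, had the smallest difference of the core subunits, -0.47 ± 0.08 in Cirrhosis against Control, and was at 0.02 on unscaled totals, not called.

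Within complex I, accessory subunits held the largest differences in Cirrhosis against Control. Ndufb3 (chr1:58586384-58595964, plus strand, GRCm38) had lowest, median and highest levels of 2.36, 4.57 and 6.28 CPM in Cirrhosis-PTH livers, 2.42, 3.0 and 3.47 CPM in Cirrhosis livers, and 4.94, 7.51 and 10.0 CPM in Control livers. All Control libraries lay above all Cirrhosis libraries, and 1 Cirrhosis-PTH library, replicate 6, lay below every Cirrhosis library. Ndufb3 differed by -1.32 ± 0.19 (adjusted p = 7.37e-06) in Cirrhosis against Control and 0.58 ± 0.19 (adjusted p = 0.0201) in Cirrhosis-PTH against Cirrhosis. The second of these was not called without Cirrhosis-PTH replicate 2, at 0.46. Ndufa3 reached 12.4, 16.2 and 21.5 CPM in Cirrhosis-PTH livers, 8.58, 10.7 and 12.1 CPM in Cirrhosis livers, and 17.9, 22.9 and 31.8 CPM in Control livers as its lowest, median and highest levels. Its Cirrhosis libraries lay below all others, and its Cirrhosis-PTH and Control libraries overlapped. The log2 fold change of Ndufa3 was -1.15 ± 0.15 (adjusted p = 2.75e-06) in Cirrhosis against Control and 0.62 ± 0.15 (adjusted p = 0.00262) in Cirrhosis-PTH against Cirrhosis. Ndufb10 differed by -1.07 ± 0.12 in Cirrhosis against Control and by 0.57 ± 0.12 in Cirrhosis-PTH against Cirrhosis.

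Other accessory subunits of complex I showed the same order of groups with a narrower spread. Ndufb9 averaged 39.1 ± 4.85 CPM in Cirrhosis-PTH, 23.3 ± 1.73 CPM in Cirrhosis, 43.2 ± 2.76 CPM in Control, and Ndufb5 averaged 29.2 ± 2.61 CPM in Cirrhosis-PTH, 17.4 ± 1.62 CPM in Cirrhosis, 30.6 ± 2.15 CPM in Control (SD, n = 6 each). In both, all Cirrhosis-PTH libraries and all Control libraries lay above all Cirrhosis libraries. Ndufb8 had 32.2 ± 2.56 CPM in Cirrhosis-PTH, 21.8 ± 1.41 CPM in Cirrhosis, 38.4 ± 3.61 CPM in Control, and was the subunit of complex I with the smallest adjusted p but 1 in Cirrhosis against Control, at -0.81 ± 0.07 (adjusted p = 7.45e-09). Ndufa11 was the exception in Cirrhosis-PTH against Cirrhosis, with 0.25 ± 0.11 (adjusted p = 0.0671). The annotated pseudogene copies Ndufb4c and Ndufs6b, whose reads can be split with those of Ndufb4 and Ndufs6, were also lower in Cirrhosis than in Control, with log2 fold changes of -0.96 ± 0.18 and -0.92 ± 0.31.

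Complex II, the succinate dehydrogenase that is also an enzyme of the citric acid cycle, had all 4 of its subunits lower in Cirrhosis than in Control (median -0.80) and all 4 higher in Cirrhosis-PTH than in Cirrhosis (median 0.73). For each of the 4 no Cirrhosis library overlapped either other group. Sdha, the flavoprotein that oxidises succinate (chr13:74322254-74350280, minus strand, GRCm38), had lowest, median and highest levels of 217, 242 and 253 CPM in Cirrhosis-PTH livers, 123, 132 and 152 CPM in Cirrhosis livers, and 221, 251 and 299.7 CPM in Control livers. The range of Cirrhosis-PTH livers lay within that of Control livers but for its low end. Sdha differed by -0.93 ± 0.08 (adjusted p = 4.82e-09) in Cirrhosis against Control and 0.82 ± 0.08 (adjusted p = 6.29e-08) in Cirrhosis-PTH against Cirrhosis. Sdhb, the iron-sulfur subunit whose promoter is printed above, had 59.3, 68.2 and 76.4 CPM in Cirrhosis-PTH livers, 32.9, 38.5 and 49.0 CPM in Cirrhosis livers, and 56.5, 73.3 and 91.3 CPM in Control livers in the same form, with the Control range enclosing that of Cirrhosis-PTH. Its differences were -0.87 ± 0.11 (adjusted p = 1.81e-06) in Cirrhosis against Control and 0.78 ± 0.11 (adjusted p = 1.17e-05) in Cirrhosis-PTH against Cirrhosis. The membrane anchors Sdhc and Sdhd differed by -0.63 ± 0.09 and -0.73 ± 0.09 in Cirrhosis against Control, and by 0.55 ± 0.09 and 0.69 ± 0.09 in Cirrhosis-PTH against Cirrhosis. Between Cirrhosis-PTH and Control, the 4 log2 fold changes ran from -0.11 to -0.05, with 0 called in edgeR and 0 in DESeq2, also at an unadjusted p under 0.05, and their median was 0.11 on unscaled totals.

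Complex III had 8 of 8 subunits lower in Cirrhosis than in Control, with no overlap of libraries for any of them, and 8 of 8 higher in Cirrhosis-PTH than in Cirrhosis. Uqcrfs1, the Rieske iron-sulfur protein that takes the electron from ubiquinol, had 50.3, 59.7 and 61.0 CPM in Cirrhosis-PTH livers, 31.8, 36.6 and 41.6 CPM in Cirrhosis livers, and 52.3, 55.5 and 60.8 CPM in Control livers as its lowest, median and highest levels. The Cirrhosis libraries stood apart below both other groups, which overlapped. Uqcrfs1 differed by -0.62 ± 0.07 (adjusted p = 2.33e-07) in Cirrhosis against Control and 0.65 ± 0.07 (adjusted p = 2.80e-07) in Cirrhosis-PTH against Cirrhosis. The core proteins Uqcrc1 and Uqcrc2 changed by -0.65 ± 0.07 and -0.59 ± 0.07 in Cirrhosis against Control, and by 0.60 ± 0.07 and 0.54 ± 0.06 in Cirrhosis-PTH against Cirrhosis. Uqcr11, a small accessory subunit whose promoter is printed above (chr10:80402997-80406830, minus strand, GRCm38), had 9.30, 12.4 and 18.3 CPM in Cirrhosis-PTH livers, 6.09, 7.38 and 10.7 CPM in Cirrhosis livers, and 14.2, 18.7 and 27.1 CPM in Control livers. Its Control libraries all lay above its Cirrhosis libraries, while its Cirrhosis-PTH libraries overlapped both. Uqcr11 had the largest difference of the 77, -1.34 ± 0.19 (adjusted p = 7.29e-06) in Cirrhosis against Control, and differed by 0.72 ± 0.19 (adjusted p = 0.0045) in Cirrhosis-PTH against Cirrhosis. Uqcrb, another small subunit, was at -0.89 ± 0.11 in Cirrhosis against Control.

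Complex IV had the most widely expressed genes without a call in Cirrhosis-PTH against Cirrhosis. Of its 12 widely expressed genes 11 were lower in Cirrhosis than in Control (median -0.63) and 9 were higher in Cirrhosis-PTH than in Cirrhosis (median 0.50). Cox4i1, a regulatory subunit that helps adjust the enzyme to the ATP supply, had 136, 154 and 168 CPM in Cirrhosis-PTH livers, 97.8, 116 and 124 CPM in Cirrhosis livers, and 157, 162 and 173 CPM in Control livers as its lowest, median and highest levels, with the Cirrhosis libraries apart from the others. It differed by -0.52 ± 0.07 (adjusted p = 9.97e-07) in Cirrhosis against Control and 0.43 ± 0.07 (adjusted p = 1.95e-05) in Cirrhosis-PTH against Cirrhosis. Cox6c had 75.1 ± 8.26 CPM in Cirrhosis-PTH, 48.6 ± 4.56 CPM in Cirrhosis, 84.2 ± 6.94 CPM in Control, and Cox6b1 69.7 ± 4.85 CPM in Cirrhosis-PTH, 49.6 ± 4.34 CPM in Cirrhosis, 78.3 ± 8.80 CPM in Control (SD, n = 6 each). Neither gene's Cirrhosis libraries overlapped those of another group. Cox5a, Cox7b and Ndufa4 differed by -0.60 ± 0.09, -0.66 ± 0.08 and -0.69 ± 0.10 in Cirrhosis against Control. The smallest falls among the widely expressed genes were those of the supercomplex factor Cox7a2l, -0.30 ± 0.08, and of Cox7a2, -0.37 ± 0.08. With unscaled totals Cox7a2l was at 0.19, not called, and Cox7a2 at 0.12, not called.

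The 3 genes of complex IV without a call in Cirrhosis-PTH against Cirrhosis were Cox8a, Cox5b and Cox6a1. Cox8a (chr19:7215153-7217616, minus strand, GRCm38), the widely expressed form of the smallest subunit, had 17.2, 49.9 and 91.7 CPM in Cirrhosis-PTH livers, 13.8, 30.5 and 61.8 CPM in Cirrhosis livers, and 23.3, 53.3 and 72.9 CPM in Control livers as its lowest, median and highest levels. All 3 groups overlapped over most of their range. Its log2 fold changes were -0.40 ± 0.45 (adjusted p = 0.497) in Cirrhosis against Control, 0.50 ± 0.45 (adjusted p = 0.424) in Cirrhosis-PTH against Cirrhosis and 0.11 ± 0.45 (adjusted p = 0.923) in Cirrhosis-PTH against Control. Cox5b, a zinc-binding subunit, had 7.88, 14.4 and 27.6 CPM in Cirrhosis-PTH livers, 9.13, 10.4 and 15.3 CPM in Cirrhosis livers, and 14.8, 22.2 and 35.8 CPM in Control livers, with overlap in every comparison. Cox5b was still lower in Cirrhosis than in Control at -1.07 ± 0.26 (adjusted p = 0.00262). Cox6a1 averaged 27.7 ± 9.69 CPM in Cirrhosis-PTH, 19.7 ± 2.94 CPM in Cirrhosis, 33.8 ± 10.9 CPM in Control (SD, n = 6 each), and its difference of -0.77 ± 0.23 (adjusted p = 0.00865) was not called without Control replicates 7 and 8, at -0.54.

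Complex V had all 17 of its widely expressed genes lower in Cirrhosis than in Control (median -0.63) and 15 higher in Cirrhosis-PTH than in Cirrhosis (median 0.48). The 5 subunits of the F1 head, which holds the catalytic sites, had medians of -0.76 and 0.56. Atp5b, the catalytic beta subunit, had lowest, median and highest levels of 412, 456 and 489 CPM in Cirrhosis-PTH livers, 316, 329 and 357 CPM in Cirrhosis livers, and 466, 478 and 524 CPM in Control livers. Every Cirrhosis library lay below every other library, with a gap between 357 CPM, the highest Cirrhosis level, and 412 CPM, the lowest Cirrhosis-PTH level. Atp5b differed by -0.54 ± 0.07 (adjusted p = 5.57e-07) in Cirrhosis against Control and 0.45 ± 0.07 (adjusted p = 1.00e-05) in Cirrhosis-PTH against Cirrhosis. Atp5a1, the alpha subunit, averaged 450.1 ± 26.7 CPM in Cirrhosis-PTH, 284 ± 27.4 CPM in Cirrhosis, 486 ± 48.8 CPM in Control (SD, n = 6 each) and differed by -0.77 ± 0.08 (adjusted p = 7.94e-08) in Cirrhosis against Control and 0.66 ± 0.08 (adjusted p = 1.21e-06) in Cirrhosis-PTH against Cirrhosis. Atp5c1, the gamma subunit that turns inside the head, differed by -0.76 ± 0.09 and 0.56 ± 0.08 in the same comparisons. Atp5d, the delta subunit of the central stalk, differed by -0.61 ± 0.07 and 0.53 ± 0.07. The peripheral stalk (Atp5f1, Atp5h, Atp5j, Atp5o) had 4 of 4 genes lower and then 4 of 4 higher, with medians of -0.58 and 0.46.

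The c ring of complex V, the rotor through which protons pass, is encoded by 3 genes for the same mature protein. Atp5g3 supplied 54.5 ± 4.56% of their summed CPM per length in Cirrhosis-PTH livers, 51.4 ± 1.96% in Cirrhosis livers and 54.8 ± 3.65% in Control livers. Atp5g2 supplied 34.5 ± 3.93%, 37.4 ± 2.01% and 34.4 ± 3.16% in the same order, and the share of Atp5g1 ran from 9.72% to 12.0% over all libraries. No difference in these shares passed the exact permutation test (smallest two-sided p = 0.0671 for Atp5g3 in Cirrhosis against Control, adjusted p = 0.318), so a change in their proportions was not detectable with 6 mice per group. All 3 genes were lower in Cirrhosis than in Control, from -0.67 ± 0.09 for Atp5g3 to -0.46 ± 0.08 for Atp5g2. With unscaled totals Atp5g2 was at 0.03, not called.

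The small membrane subunits of complex V, which help bend the membrane into cristae, were the least uniform. Atp5k, subunit e, had 2.42, 5.70 and 9.12 CPM in Cirrhosis-PTH livers, 3.24, 3.93 and 6.19 CPM in Cirrhosis livers, and 7.65, 8.39 and 13.1 CPM in Control livers as its lowest, median and highest levels, and Atp5j2, subunit f, had 7.53, 19.1 and 20.6 CPM in Cirrhosis-PTH livers, 10.6, 12.6 and 15.0 CPM in Cirrhosis livers, and 19.4, 23.5 and 27.4 CPM in Control livers. In both, replicate 6 of Cirrhosis-PTH was below every Cirrhosis library. Atp5k was lower in Cirrhosis than in Control, at -1.16 ± 0.26 (adjusted p = 8.29e-04), and was not called in Cirrhosis-PTH against Cirrhosis at 0.48 ± 0.25 (adjusted p = 0.153). Atp5j2 had -0.88 ± 0.18 (adjusted p = 3.34e-04) and 0.42 ± 0.18 (adjusted p = 0.065) in the same comparisons. Without replicates 3 and 6 of Cirrhosis-PTH, which were left out together after the data had been seen, Atp5k and Atp5j2 were higher in Cirrhosis-PTH than in Cirrhosis by 0.77 and 0.64, both called, as was Cox5b at 0.76. Without replicate 6 alone the 3 values were 0.64 for Atp5k, 0.57 for Atp5j2 and 0.68 for Cox5b, all called.

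**Figure D3:**
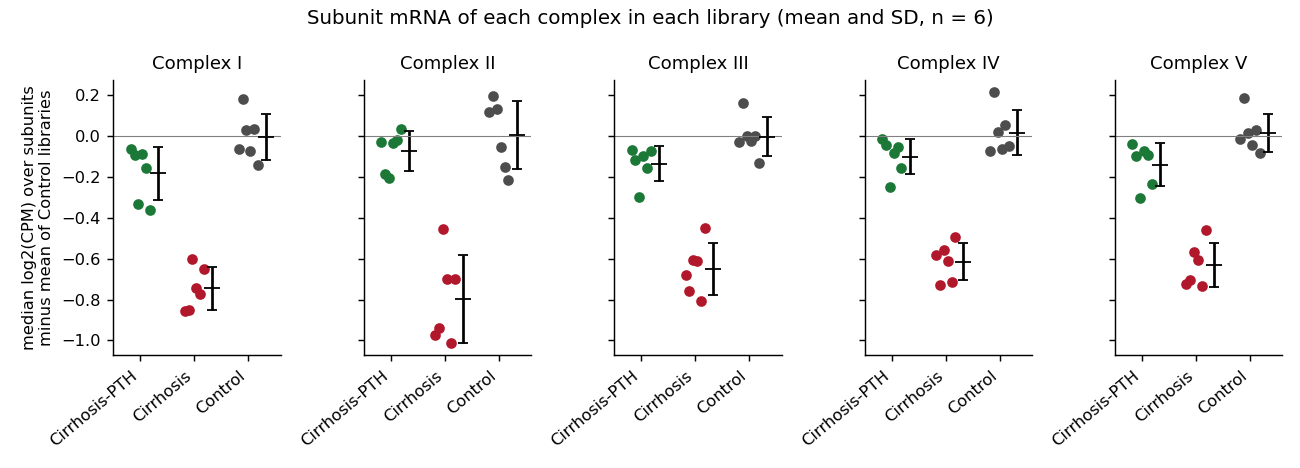
Each point is 1 library, at the median over the subunits of a complex of log2 CPM minus the mean of the Control libraries (y axis), with groups on the x axis and the mean and SD of 6 libraries beside the points. On the TMM scale the Cirrhosis libraries lie between -1.01 and -0.45 over the 5 complexes, and the Cirrhosis-PTH libraries between -0.36 and 0.03.

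The genes called between Cirrhosis-PTH and Control were accessory subunits, 6 of complex I and 1 of complex III. The 7 genes called lower were Ndufb3 (-0.74 ± 0.19), Uqcr11 (-0.62 ± 0.19), Ndufa3 (-0.53 ± 0.15), Ndufb10 (-0.50 ± 0.12), Ndufa1 (-0.40 ± 0.12), Ndufs6 (-0.39 ± 0.11) and Ndufb8 (-0.25 ± 0.07), with adjusted p from 0.0115 to 0.0466. Of the 7, only Ndufb10 had every Cirrhosis-PTH library below every Control library, and the share of all genes doing so is not given. The count of 7 was 2 without Cirrhosis-PTH replicate 3, 2 without Cirrhosis-PTH replicate 6, 2 without Control replicate 2, 3 without Control replicate 7, 4 without Control replicate 3 and 4 without Cirrhosis-PTH replicate 4. Without Cirrhosis-PTH replicates 3 and 6 together it was 0 in edgeR, with 10 genes lower at an unadjusted p under 0.05, a threshold for which no share of all genes is given. In that setting the 79 genes lower in Cirrhosis than in Control were still 79, and the 72 higher in Cirrhosis-PTH than in Cirrhosis became 76.

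Cirrhosis-PTH replicates 3 and 6 stood apart in short subunit transcripts, and replicate 3 was the lowest of its group in longer ones too. The principal transcripts of the 77 subunits had a median length of 745 bases, from 315 to 3171, against 2981 for the 9500 genes tested with a log2 CPM over 2. For the 35 subunits of at most 700 bases, the median log2 CPM relative to the Control mean was -0.46 in Cirrhosis-PTH replicate 6 and -0.33 in replicate 3, and lay between -0.12 and -0.06 in the other 4 Cirrhosis-PTH libraries. For the 42 longer subunits it was -0.15 in replicate 6 and -0.25 in replicate 3, and between -0.13 and -0.04 in the other 4. The 212 other genes of at most 700 bases were also lowest in those libraries, at -0.30 and -0.21. The mitochondrially encoded subunits stood at 4472 CPM in all in replicate 6 and 8001 CPM in replicate 3, and between 10363 and 13834 CPM in the other 4. The part of transcript length in the group differences was not tested.

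The subunits were set beside other genes of the same transcript length. In Cirrhosis against Control, the subunits had medians of -0.60, -0.66, -0.77 and -0.75 in 4 classes of length, with upper limits of 500, 700, 1000 and 1500 bases. Other genes of the same classes had medians of -0.22, -0.23, -0.23 and -0.22. In Cirrhosis-PTH against Cirrhosis, the subunit medians in those classes were 0.45, 0.50, 0.53 and 0.63, and those of other genes were 0.12, 0.11, 0.14 and 0.16. In Cirrhosis-PTH against Control, the subunit medians were -0.15, -0.17, -0.19 and -0.10, next to -0.10, -0.11, -0.08 and -0.07 in other genes.

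**Figure D4:**
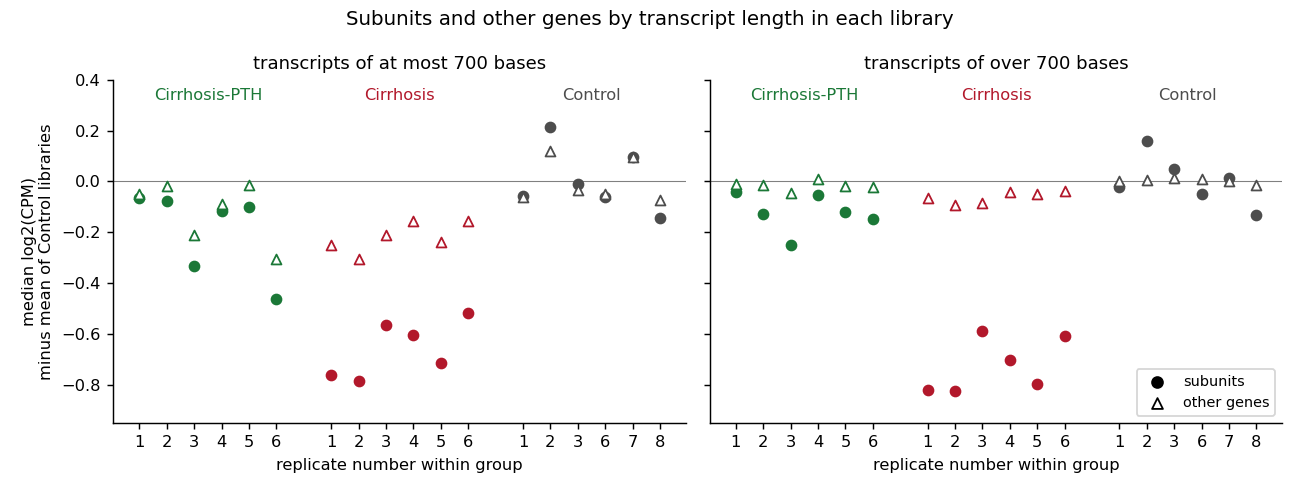
Each filled circle is the median over subunits, and each open triangle that over other genes, of log2 CPM minus the mean of the Control libraries (y axis), for each library by replicate number (x axis), with short transcripts on the left and longer ones on the right. In the left panel Cirrhosis-PTH replicates 3 and 6 lie below the other 4 of their group for subunits and for other genes, and the Cirrhosis libraries lie between -0.79 and -0.52 for subunits.

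Some subunits of complex IV have isoforms made mainly in muscle or testis, which are scarce in liver. Cox6a2, the muscle form of subunit 6a (chr7:128205435-128206387, minus strand, GRCm38), had no count in any of the 6 Cirrhosis-PTH libraries, between 9 and 30 counts in each Cirrhosis library, and 8 counts in Control replicate 7 with none in the other 5. With 126 counts over the Cirrhosis group, it was at least 33.0-fold lower in Cirrhosis-PTH than in Cirrhosis, against a floor of 3 counts over the Cirrhosis-PTH group, which covers counting error only. Its share of the summed 6a isoforms per length was 0% in Cirrhosis-PTH, 1.02 ± 0.499% in Cirrhosis and 0.0633 ± 0.155% in Control. The share was lower in Cirrhosis-PTH than in Cirrhosis and higher in Cirrhosis than in Control (two-sided exact permutation p = 0.0022 each, the smallest that 6 against 6 allows, adjusted p = 0.0292 over 27 tests). In edgeR, Cox6a2 was higher in Cirrhosis than in Control at 2.88 ± 1.03 (adjusted p = 0.0278), a call that was lost without Control replicates 1, 2, 3, 6 or 8 or without Cirrhosis replicates 5 or 6, each left out alone. Cox6a2 passed the filter on low counts mainly through the Cirrhosis libraries, where it was high, so this call is not separate support. The share differences lost their call in 10 of the 18 settings that left out 1 library, with adjusted p from 0.0390 to 0.0584 over the 18, and kept their direction. Leaving out 1 library of a compared group raises the smallest p that the test allows. These losses therefore cannot tell whether the difference rests on 1 library.

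Muscle RNA was measured beside this isoform. Over 11 striated muscle markers the summed level ran from 0.332 to 2.0 CPM in Cirrhosis-PTH libraries, from 0.916 to 8.91 CPM in Cirrhosis libraries and from 0.100 to 0.643 CPM in Control libraries. Of the 2 markers that passed the filter, Tnnt2, a cardiac troponin, was higher in Cirrhosis than in Control at 2.15 ± 0.58 (adjusted p = 0.00365), and Actn3 was not called. Neither was called in Cirrhosis-PTH against Cirrhosis, where Tnnt2 was at -0.36 ± 0.52 (adjusted p = 0.635). Cirrhosis replicate 2 held the 8.91 CPM, and had 9 counts of Cox6a2. The other Cirrhosis libraries held 0.916 to 1.24 CPM of the markers and 16 to 30 counts of Cox6a2. The part of muscle RNA in the Cox6a2 values was not tested, and 1 library cannot show it. The exons of Cox6a2 overlap those of Itgad on the opposite strand, and Itgad averaged 0.0759 ± 0.0643 CPM in Cirrhosis-PTH, 0.0808 ± 0.0935 CPM in Cirrhosis and 0.0423 ± 0.104 CPM in Control, with no call in edgeR.

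Cox6b2, the testis form of subunit 6b, had 0, 0.164 and 0.343 CPM in Cirrhosis-PTH livers, 0.107, 0.378 and 0.640 CPM in Cirrhosis livers, and 0, 0.0807 and 0.194 CPM in Control livers as its lowest, median and highest levels. The Cirrhosis range overlapped both others. Cox6b2 was higher in Cirrhosis than in Control at 2.15 ± 0.76 (adjusted p = 0.0233), and its share of the 6b isoforms was 0.482 ± 0.275% in Cirrhosis and 0.0704 ± 0.0667% in Control (exact permutation adjusted p = 0.0390, and from 0.0390 to 0.0779 with 1 library left out). The edgeR call was lost without Cirrhosis replicate 4, at 1.94. Cox6b2 passed the filter on low counts in part through the Cirrhosis libraries, where it was high, so this call is not separate support. In Cirrhosis-PTH the share was 0.163 ± 0.101%, not called against either group. None of 5 germ cell markers passed the filter, and 2 of them, Prm1 and Tnp1, had no count in any library. Summed over the 5, levels ran from 0 to 0.141 CPM in Cirrhosis-PTH, 0 to 0.119 CPM in Cirrhosis and 0 to 0.322 CPM in Control. Cox7a1 and the hypoxia-responsive Ndufa4l2, whose exons overlap the abundant Shmt2, were tested and not called in any comparison. Without Control replicates 7 and 8, Ndufa4l2 was called lower in Cirrhosis than in Control, at -1.01. Ndufa4l2 had 11 to 80 counts per library. Shmt2, on the opposite strand, averaged 83.6 ± 7.48 CPM in Cirrhosis-PTH, 52.6 ± 9.24 CPM in Cirrhosis and 112 ± 17.9 CPM in Control. Its difference in Cirrhosis against Control was -1.09 ± 0.11 (edgeR adjusted p = 5.77e-08). The part of Shmt2 reads in the Ndufa4l2 values was not tested. Cox4i2 and Cox8b had too few counts to be tested, and Cox7b2 and Cox8c had none.

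**Figure D5:**
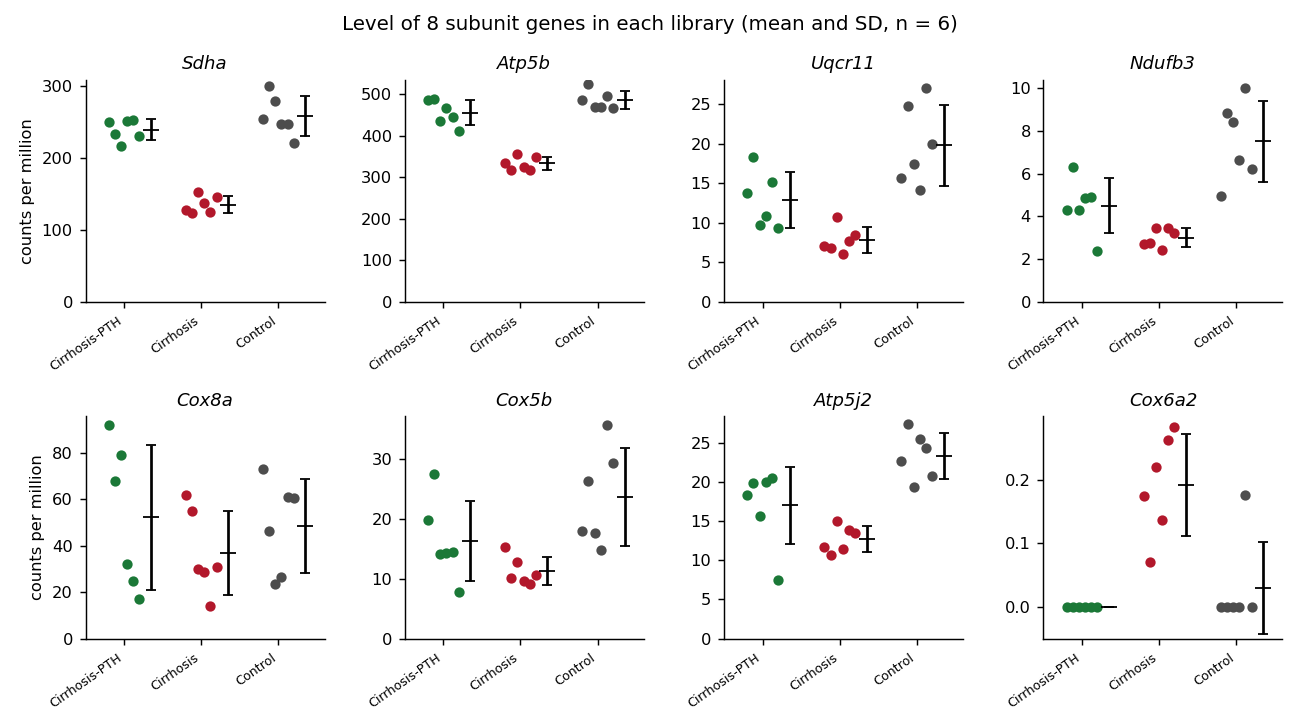
Levels of 8 genes in CPM (y axis) in each library, with groups on the x axis and the mean and SD of 6 libraries beside the points. Sdha and Atp5b separate Cirrhosis from both other groups, the groups overlap in Cox8a and Cox5b, Cirrhosis-PTH replicate 6 is the low point of Atp5j2 at 7.53 CPM, and Cox6a2 has counts in all 6 Cirrhosis libraries and in no Cirrhosis-PTH library.

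The subunits encoded by mitochondrial DNA, which are assembled with the nuclear ones, also fell in Cirrhosis, and 1 of them was called between the CCl4 groups in edgeR and 2 in DESeq2. All 13 were lower in Cirrhosis than in Control (median -1.11, and -0.62 with 6 called on unscaled totals), with the smallest p for mt-Co3, mt-Co2 and mt-Co1, the catalytic part of complex IV. In Cirrhosis-PTH against Cirrhosis mt-Co3 was called higher in edgeR, at 0.38 ± 0.14 (adjusted p = 0.0359), with a median of 0.35 over the 13. Against Control, mt-Co2 and mt-Co3 were lower in Cirrhosis-PTH in edgeR, with log2 fold changes of -0.60 ± 0.16 and -0.50 ± 0.14, and the median of the 13 was -0.71. DESeq2 called 9 of the 13 lower in that comparison, and 11 in edgeR and 12 in DESeq2 were lower at an unadjusted p under 0.05. Mitochondrially encoded over nuclear subunit CPM came to 2.43 ± 0.773 in Cirrhosis-PTH, 2.64 ± 0.194 in Cirrhosis and 3.51 ± 0.675 in Control (SD, n = 6 each). The ratio was lowest of all libraries in Cirrhosis-PTH replicate 6, at 1.14, and its difference between groups was not tested.

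Of 7 tested subunits and partners outside the name pattern, 5 were lower and 1 higher in Cirrhosis than in Control, and 5 were higher in Cirrhosis-PTH than in Cirrhosis. Cyc1, the cytochrome c1 of complex III, had 42.9 ± 4.19 CPM in Cirrhosis-PTH livers, 27.7 ± 2.59 CPM in Cirrhosis livers and 49.2 ± 5.98 CPM in Control livers, and differed by -0.83 ± 0.08 in Cirrhosis against Control and 0.63 ± 0.08 in Cirrhosis-PTH against Cirrhosis. Usmg5, a small subunit of complex V, differed by -0.67 ± 0.09 and 0.62 ± 0.09 in the same comparisons. Cycs, the soluble cytochrome c that shuttles between complexes III and IV, had 38.9 ± 6.34 CPM in Cirrhosis-PTH livers, 42.3 ± 4.53 CPM in Cirrhosis livers and 39.1 ± 5.34 CPM in Control livers, with no call. Atpif1, the inhibitor that stops complex V from running backwards, was higher in Cirrhosis than in Control, at 0.41 ± 0.15 (adjusted p = 0.0333).

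Assembly factors build the complexes and are not part of them. For complex I, 16 of 17 were lower in Cirrhosis than in Control and 14 were higher in Cirrhosis-PTH than in Cirrhosis, among them Dmac2 (-1.33 ± 0.11 and 1.12 ± 0.11), Ecsit and Ndufaf1. For complex II the counts were 2 of 4 and 3 of 4, for complex III 5 of 6 and 4 of 6, and for complex V 3 of 3 and 2 of 3. For complex IV they were 13 of 20 and 8 of 20, and the copper chaperone Sco2 (-1.29 ± 0.19 and 1.03 ± 0.18) and Surf1 (-0.73 ± 0.08 and 0.57 ± 0.08) were among them. On the TMM scale no assembly factor was called in the opposite direction in those comparisons, in edgeR or in DESeq2 (at an unadjusted p under 0.05, 0 in edgeR and 1 in each comparison in DESeq2). On unscaled totals the medians in Cirrhosis against Control were -0.08 for complex I, 0.11 for complex II, -0.05 for complex III, 0.01 for complex IV and 0.04 for complex V, with 8 factors called lower in all and 8 called higher. In Cirrhosis-PTH against Cirrhosis, Atpaf1 and Cox10 were called higher on the TMM scale. On unscaled totals they were at -0.012 and -0.0099, not called.

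Genes that feed electrons to the chain or make its parts were counted in the same way. Of 14 citric acid cycle enzymes, 11 were lower in Cirrhosis than in Control and 12 higher in Cirrhosis-PTH than in Cirrhosis, with Idh2 and Fh1 also higher in Cirrhosis-PTH than in Control, by 0.48 ± 0.09 and 0.31 ± 0.09. On unscaled totals the citric acid cycle counts were 3 lower and 3 higher in Cirrhosis against Control, and 8 higher and 2 lower in Cirrhosis-PTH against Cirrhosis. Of 8 other entry points for electrons, all 8 were lower in Cirrhosis than in Control and 7 higher in Cirrhosis-PTH than in Cirrhosis. On unscaled totals 1 of the 8, Dhodh, was at 0.009 in Cirrhosis against Control, not called. Prodh, the proline dehydrogenase, led them with 115 ± 20.9 CPM in Cirrhosis-PTH livers, 23.2 ± 9.63 CPM in Cirrhosis livers and 96.5 ± 24.8 CPM in Control livers. Of 78 mitochondrial ribosomal proteins, 53 were lower and 2 higher in Cirrhosis than in Control, and 35 were higher and 2 lower in Cirrhosis-PTH than in Cirrhosis, while on unscaled totals 6 were lower and 23 higher, and 9 higher and 12 lower. The mitochondrial ADP/ATP carriers went in opposite directions on the TMM scale, with the heart and muscle form Slc25a4 higher in Cirrhosis than in Control by 1.41 ± 0.21 and the proliferation-linked Slc25a5 lower, at -0.37 ± 0.08. The voltage-dependent channel Vdac1 of the outer membrane was lower, at -0.59 ± 0.09. On unscaled totals Slc25a5 was at 0.12, not called, the same sign as Slc25a4, and 4 of the 6 tested carriers and channels were called higher in Cirrhosis than in Control.

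Among 18 regulators of mitochondrial gene expression, 11 were lower and 1 higher in Cirrhosis than in Control, and 10 were higher and 1 lower in Cirrhosis-PTH than in Cirrhosis. On unscaled totals 4 were lower and 7 higher in Cirrhosis against Control, and 4 higher and 4 lower in Cirrhosis-PTH against Cirrhosis. Ppargc1b, a coactivator of mitochondrial gene programmes, had 14.9 ± 2.15 CPM in Cirrhosis-PTH livers, 3.61 ± 1.5 CPM in Cirrhosis livers and 17.3 ± 2.55 CPM in Control livers, a difference of -2.26 ± 0.20 (adjusted p = 2.27e-08) in Cirrhosis against Control and of 2.04 ± 0.20 (adjusted p = 1.72e-07) in Cirrhosis-PTH against Cirrhosis. Ppara and Esrra, nuclear receptors that drive fat oxidation and respiratory genes, differed by -1.22 ± 0.08 and -0.93 ± 0.11 in Cirrhosis against Control, and by 0.98 ± 0.08 and 0.85 ± 0.11 in Cirrhosis-PTH against Cirrhosis. Of the factors whose motifs were searched in the promoters, which are named here after their values had been seen, Nrf1 was at 0.11 ± 0.10 (adjusted p = 0.346) in Cirrhosis against Control, Gabpa at -0.40 ± 0.08 (adjusted p = 1.26e-04) and Yy1 at -0.30 ± 0.07 (adjusted p = 0.00119). On unscaled totals Gabpa was at 0.09, not called, and Yy1 was called higher, at 0.20. Of 10 hypoxia targets, 4 were higher and 3 lower in Cirrhosis than in Control, and 3 were higher and 3 lower in Cirrhosis-PTH than in Cirrhosis. Hk2, a hexokinase of glycolysis, had 2.94 ± 0.600 CPM in Cirrhosis-PTH livers, 9.39 ± 1.26 CPM in Cirrhosis livers and 1.85 ± 0.657 CPM in Control livers, and was the 1 target called between Cirrhosis-PTH and Control, at 0.68 ± 0.19 (adjusted p = 0.0265). Bnip3, a factor in the removal of mitochondria, differed by -1.08 ± 0.12 in Cirrhosis against Control and 1.21 ± 0.12 in Cirrhosis-PTH against Cirrhosis.

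Markers of liver cell types also differed between the groups. Of 7 hepatocyte markers, 6 were lower in Cirrhosis than in Control (median -0.52) and 5 higher in Cirrhosis-PTH than in Cirrhosis (median 0.46), with summed levels of 47600.0 to 53099 CPM in Cirrhosis-PTH, 33188 to 51461 CPM in Cirrhosis and 48783 to 63694 CPM in Control. On unscaled totals 2 of the 7 were lower and 1 higher in Cirrhosis against Control (median -0.04). Of 11 stellate, mural and myofibroblast markers, 9 were higher in Cirrhosis than in Control and 9 lower in Cirrhosis-PTH than in Cirrhosis, with summed levels of 234 to 431 CPM in Cirrhosis-PTH, 466 to 619 CPM in Cirrhosis and 199 to 256 CPM in Control. Of 6 macrophage markers, 5 were higher and 1 lower in Cirrhosis than in Control, and 5 were lower in Cirrhosis-PTH than in Cirrhosis, with summed levels of 115 to 147 CPM, 167 to 282 CPM and 117 to 173 CPM in Cirrhosis-PTH, Cirrhosis and Control. All 5 cholangiocyte and all 3 tested neutrophil markers were higher in Cirrhosis than in Control in edgeR (1 neutrophil marker in DESeq2). So were 3 of 5 T and B cell markers and 2 of 5 endothelial markers, with 1 endothelial marker lower. In Cirrhosis-PTH against Cirrhosis, 2 cholangiocyte and 3 neutrophil markers were lower in edgeR (1 neutrophil marker in DESeq2). Of the endothelial markers 2 were lower and 1 higher there, and 0 T and B cell markers were called. Summed neutrophil levels ran from 0.989 to 5.17 CPM in Cirrhosis-PTH, 4.91 to 89.9 CPM in Cirrhosis and 0.179 to 4.68 CPM in Control. No hepatocyte, stellate, macrophage, cholangiocyte or neutrophil marker was at 0 in any group, and the part of cell composition in the subunit values was not tested.

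Exons of 28 of the 77 subunits overlap those of another gene, and the counting is not stated to use strand. The 28 had a median of -0.65 in Cirrhosis against Control, with 28 lower, and the 49 without overlap had -0.69, with 48 lower. In Cirrhosis-PTH against Cirrhosis the medians were 0.54 and 0.51, with 27 and 44 higher.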

How the data were processed

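Total RNA of 18 mouse livers was sequenced after removal of ribosomal RNA, and the values used are the whole-number counts per gene that the authors deposited, unscaled. The submitters' processing notes list Trim Galore, cutadapt 4.2, Bowtie2, Bowtie 1.3.1, HISAT2 2.2.1, StringTie 2.1.5 and the build GRCm38, without roles, and the counting rule, strandedness and annotation release are not given in the sources used here. Every row names a gene. Groups come from the labels. Each mouse has 1 library, so p-values measure the spread between mice.

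All libraries entered 1 edgeR 4.0.16 fit (R 4.3.3, TMM, filterByExpr, robust quasi-likelihood F-test, two-sided), with Benjamini-Hochberg adjustment over 21914 genes and a threshold of 0.05. CPM is the count over the TMM-scaled library size in M. Standard errors come from the F statistic. Alternatives were DESeq2 1.42.0, other scalings, no filter, thinned counts, the replicate number as a block and libraries left out. The fit and the permutation test (scipy 1.17.1) were tested on simulated data. Upper quartile scaling, TMM without ribosomal and mitochondrial genes, and leaving out Cirrhosis-PTH replicates 3 and 6 were chosen after seeing the data. Isoform shares are of CPM per length of all annotated exons. Gene coordinates and transcript lengths are from GENCODE mouse release M21 on GRCm38, and promoters from RefSeq. Depth was 24.5 M to 67.5 M counts outside the ribosomal loci. No library pair had identical counts.

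The subunits, gene lists and tests were chosen with earlier results of these data known. Named subunits are, per comparison and complex, the 3 with the smallest p and the 2 with the largest change among those called whose mean log2 CPM was 1 or more, plus complex II, isoform pairs, those against their complex's direction and those not called in Cirrhosis against Control. In other lists the 3 with the smallest p were named. Other genes named were chosen after their values were seen. The values of 1 subunit gene are not reported individually here.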

Additional observations from a re-analysis of the deposited data

Results flagged for a closer look

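Within each group of 6 mice, a library was set apart where the gap to its nearest neighbour, as a share of the group's range, was above Dixon's 95% critical value, over 120 sets of 1 named subunit in 1 group. It was met by 3 of the 120, fewer than the about 1 in 20 that chance gives, and all 3 were in Cirrhosis-PTH. Cox7a2, the widely expressed form of subunit 7a, reached 40.2 CPM in replicate 6, with the next library at 34.6 and the lowest at 31.4 CPM. Ndufv1, the NADH-binding subunit of complex I, reached 68.6 CPM in replicate 6, with the next at 56.2 and the lowest at 53.3 CPM. Ndufb5, an accessory subunit of complex I, was at 24.3 CPM in replicate 3, with the next library at 29.3 and the highest at 32.2 CPM. Replicates 3 and 6 are also the libraries of that group in which short subunit transcripts were lowest, while Cox7a2 and Ndufv1 were at their highest in replicate 6. Without both of them Ndufv1 and Ndufb5 were higher in Cirrhosis-PTH than in Cirrhosis by 0.66 and 0.77, both called, next to 0.71 and 0.75 with all libraries. Cox7a2 was at 0.33 without them and 0.38 with them.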

How the results depend on the processing

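The 79 subunit genes lower in Cirrhosis than in Control and the 72 higher in Cirrhosis-PTH than in Cirrhosis stayed within 1.5 times those counts under all alternatives other than library totals outside the ribosomal loci, where they were 30 and 36, and 1 gene was higher in Cirrhosis-PTH than in Control. Under that scale Cox7a2 and Atp5g2 were at 0.12 and 0.031 in Cirrhosis against Control, not called.

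The 7 genes lower in Cirrhosis-PTH than in Control became 1 with that scale, 4 with no filter, 4 with the 12 libraries of the groups compared, 2 without Control replicates 7 and 8, and 0 without Cirrhosis-PTH replicates 3 and 6. Leaving out 1 library at a time gave 2 to 8. The 2 genes higher in Cirrhosis than in Control became 1 with no filter, 0 with thinned counts (0 at an unadjusted p under 0.05, 2 in DESeq2) and 1 to 2 with 1 library left out. The 1 gene lower in Cirrhosis-PTH than in Cirrhosis became 0 with the 12 libraries and 0 with thinned counts (0 at an unadjusted p in both, where Cox6a2 failed the filter, and 1 in DESeq2).

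Replicate numbers did not pair the mice: same-numbered libraries of different groups correlated between -0.0644 and 0.0512, and 2 of 28 correlated best with their own number. With the replicate block, 1 gene was lower in Cirrhosis-PTH than in Control and 1 was higher in Cirrhosis than in Control. In the 150 bases before the start, the YY1 letters stood in 1.54% of the subunits with a window, NRF1 in 7.69% and ETS in 15.4%, against 1.03%, 1.96% and 8.35% of protein-coding genes. Upper quartile scaling, TMM without ribosomal and mitochondrial genes, and leaving out Cirrhosis-PTH replicates 3 and 6 were chosen after seeing the data.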
